A study of Mus musculus with 18 samples.

Results

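The urea cycle and the enzymes that make, split and recycle glutamine were examined in the livers of juvenile hypothyroid mice as a set of 10 listed genes, Cps1, Otc, Ass1, Asl, Arg1, Nags, Slc25a15, Glul, Gls2 and Oat. The genes were taken from their known place in the pathway and not from their values, though earlier results of these data were known. A probe was assigned to a gene when the RefSeq accession on the array belonged to that gene, which gave 10 probes for 8 of the 10 genes, out of 41174 probes and 16535 named genes on the array. Otc and Glul each had 2 probes. No probe was matched to Cps1 or Slc25a15 by accession, so these genes were not analysed here.

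The animals were C57BL/6 pups, 1 male per litter, sacrificed on post natal day (PND) 15. In the hypothyroid group the dams and litters drank sugar water (1%) with methimazole (MMI, 0.05%), an inhibitor of thyroid hormone synthesis, and perchlorate (1%), which blocks iodide uptake by the thyroid, from PND 12. Control dams drank the sugar water alone, and pups of both groups were injected with PBS before sacrifice. Livers of 5 control and 5 hypothyroid pups were each hybridised on a 2-colour Agilent array against a commercial universal mouse reference RNA. The values below are log2 ratios of liver over reference, so that 1 unit is a doubling, and a difference between groups is hypothyroid minus control on that scale. Arrays are named by group and animal number. The agents were given in the drinking water of dams kept with their litters. Whole liver was measured, so fewer cells of a type and less RNA per cell cannot be told apart.

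The liver disposes of ammonia in a divided way. Hepatocytes around the portal vein take ammonia, much of it freed from glutamine by the liver glutaminase Gls2, into the urea cycle, in which Nags makes the activator of carbamoyl phosphate synthetase (Cps1), Otc joins carbamoyl phosphate to ornithine, Ass1 and Asl build and split argininosuccinate, and Arg1 releases urea and regenerates ornithine. A thin layer of hepatocytes around the central vein captures the remaining ammonia with glutamine synthetase (Glul), and these cells are also rich in ornithine aminotransferase (Oat), which turns ornithine into glutamate semialdehyde and so joins the cycle to glutamate and proline. Thyroid hormone acts through nuclear receptors that bind DNA at copies of the motif AGGTCA.

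Of the 8 measured genes, Oat was the member in which all 5 hypothyroid livers were above all 5 controls, and Glul was the member whose 2 probes differed in sign. RefSeq promoter sequences (GRCm38.p6) were at hand for 5 of the 8 measured genes. The 250 bases before the start site of these 2 genes are shown on the gene's own strand. Their link to the measured values was not tested. Capitals mark AGGTCA and the CCAAT box on either strand. The Oat sequence is chr7:132576399-132576648 on the minus strand and the Glul sequence is chr1:153899679-153899928 on the plus strand.
Oat: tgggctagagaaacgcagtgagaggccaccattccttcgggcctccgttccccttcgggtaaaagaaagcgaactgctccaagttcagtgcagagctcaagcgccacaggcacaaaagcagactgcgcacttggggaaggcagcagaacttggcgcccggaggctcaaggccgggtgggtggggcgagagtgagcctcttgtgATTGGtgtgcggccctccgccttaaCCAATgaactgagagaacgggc
Glul: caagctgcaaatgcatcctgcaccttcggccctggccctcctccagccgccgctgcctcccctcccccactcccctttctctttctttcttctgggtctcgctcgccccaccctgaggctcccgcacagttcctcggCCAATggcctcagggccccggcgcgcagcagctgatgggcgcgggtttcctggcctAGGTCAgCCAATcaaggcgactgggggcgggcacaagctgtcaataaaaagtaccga
The Oat window held no AGGTCA and 2 CCAAT boxes, one on each strand, and the Glul window held 1 AGGTCA directly followed after a single base by a CCAAT box, with another CCAAT box upstream. Among all 32851 promoters, windows of this length held AGGTCA in 14% and CCAAT in 33.8%. Of the 5 members with a promoter, AGGTCA was found in Nags and Glul and CCAAT in Glul and Oat. These matches describe the letters only.

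Facts about the arrays bear on every value that follows. The labels place liver in Cy5 on all arrays, but as labelled the ratios of control 832 and hypothyroid 576, the arrays of slide 141, correlated at -0.97 and -0.98 with those of the other slides. Their channels were therefore exchanged here, which is opposite to the labels, and as labelled Otc would read -6.68 and -6.80 and Oat -1.28 and -1.74 on these arrays. Control 616 had weak ratios in both directions, with an SD of log2 ratios over probes of 0.71 against 0.97 to 1.06 on the other arrays, and the median of the 11 tested hepatocyte markers, such as albumin (Alb), was 2.34 on it against 3.97 or more on the other 9. It was the lowest array of all for 7 of the 8 members and the lowest control on 9 of the 9 member probes that it measured. Differences are therefore given with and without control 616. Markers of exocrine pancreas also differed between the groups. The median of 14 of them ran from 0.12 to 4.09 in controls, where 832, 522 and 616 were high, and from 0.12 to 0.27 in hypothyroid livers, and 11 of the 14 were lower at an unadjusted p below 0.05 (12 without control 616). Carboxypeptidase B1 (Cpb1) was at 6.51 on control 832 and 0.06 on control 391. The part of this signal in the results was not tested, and values of the controls 881 and 391, in which it was near the hypothyroid level, are given beside the main results. All member probes were well above background in both channels on all 10 arrays and none was saturated. The number of arrays limits the precision.

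Oat stood apart from the other members. In control livers its log2 ratio was 1.00 (881), 1.28 (832), 1.26 (522), 0.28 (616) and 1.02 (391), and in hypothyroid livers 2.04 (891), 1.74 (576), 2.26 (311), 1.32 (723) and 2.07 (626). The groups did not overlap, although hypothyroid 723 was only just above control 832. The means were 0.97 ± 0.41 (SD, n = 5) and 1.89 ± 0.37 (SD, n = 5), a difference of 0.92 (SE 0.22, 95% interval 0.44 to 1.40), which is 1.89-fold. The limma p, adjusted over all 34930 tested probes, was 0.302, so Oat did not pass the threshold of 0.05. The unadjusted limma p was 0.00139. An exact permutation test of Oat alone, two-sided, gave p = 0.00794, the smallest that 5 against 5 arrays allow. Groups without overlap always give this value, so it adds nothing to the lack of overlap. Across all tested probes, 0.993% were higher without overlap, 0.968% were lower without overlap, and 0.00573% had an adjusted p below 0.05.

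Without control 616 Oat was still higher in all 5 hypothyroid livers, by 0.75 (SE 0.16, 95% interval 0.39 to 1.11, adjusted p = 0.169). Oat was also higher on each of the 4 slides that held an array of both groups, by 0.46 to 1.80. In the controls 881 and 391, whose pancreas markers were low, Oat was 1.00 and 1.02 and so below every hypothyroid liver. With the dyes as labelled on slide 141 the difference was 0.74, a value that mixes ratios of opposite sign. When the ratios of all arrays were scaled to an equal spread, Oat was higher by 0.81 with overlap. When they were set relative to the hepatocyte markers of each array, it was higher by 0.07, where the median of all tested probes was -0.85.

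**Figure D1:**
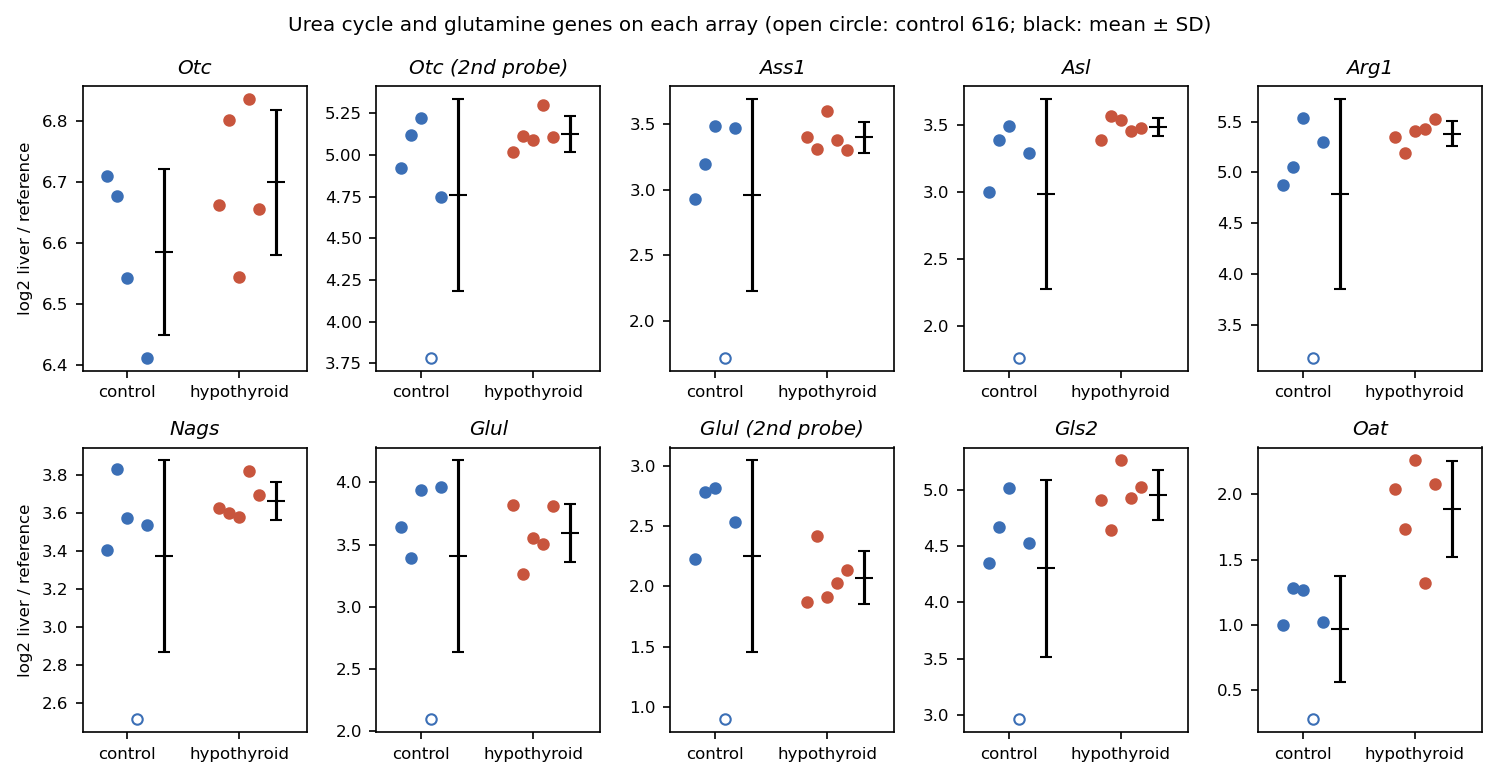
Log2 ratio of liver over reference for each of the 10 probes of the 8 measured genes, by group; each point is 1 array, the open circle is control 616 and black marks are the mean ± SD. Oat is the panel in which the groups do not overlap, and control 616 is the lowest control wherever it has a value.

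Counted over the 8 tested members, all 8 had a higher mean in the hypothyroid livers, 1 (Oat) had an unadjusted p below 0.05, 0 were lower at that level and 0 passed the adjusted threshold. At an unadjusted p below 0.05, 3.2% of all tested probes were higher and 3.91% lower. The median difference of the 8 members was 0.47, against -0.02 over all 15390 tested genes. Without control 616 the median was 0.16, 7 of the 8 means were higher and 2 members, Oat and Gls2, had an unadjusted p below 0.05, while 3.3% of tested probes were higher and 3.79% lower at that level and 0.0859% passed the adjusted threshold. The 11 tested hepatocyte markers had a median difference of 0.64, and of 0.34 without control 616, so the members' median was below that of general hepatocyte genes in both sets. With ratios scaled to an equal spread on every array, the members' median was 0.12 and Otc, Nags and Glul were lower in the hypothyroid mean, and relative to the hepatocyte markers Oat alone was higher. The part of the hepatocyte marker level in the members' values was not tested.

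None of the measured enzymes of the cycle (Otc, Ass1, Asl, Arg1 and Nags) passed the adjusted threshold. Each difference shrank or kept its small size without control 616. Cps1 and the carrier Slc25a15 were not analysed, so nothing is said of them. Arg1, which cleaves arginine to urea and ornithine, was 4.87 (881), 5.05 (832), 5.53 (522), 3.17 (616) and 5.30 (391) in controls and 5.35 (891), 5.19 (576), 5.40 (311), 5.43 (723) and 5.53 (626) in hypothyroid livers. The hypothyroid values all lay within the control range. The difference of 0.59 (SE 0.36, adjusted p = 0.758) came down to 0.19 without control 616 (95% interval -0.08 to 0.46).

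Asl, which releases arginine from argininosuccinate, was 2.999, 3.39, 3.50, 1.76 and 3.29 in controls 881, 832, 522, 616 and 391, and 3.39, 3.57, 3.54, 3.46 and 3.48 in hypothyroid 891, 576, 311, 723 and 626. Its hypothyroid values were close together and overlapped the upper controls. The difference was 0.50 (SE 0.28, adjusted p = 0.751) and 0.19 without control 616 (95% interval -0.01 to 0.40, adjusted p = 0.751). Asl was higher in the hypothyroid array on 4 of 4 shared slides, by 0.04 to 1.72, the largest being the slide of control 616. An exact permutation test of Asl alone on 10 arrays, two-sided and not adjusted for other probes, gave p = 0.0476.

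Ass1, which condenses citrulline with aspartate, was 2.93, 3.19, 3.49, 1.71 and 3.47 in the same order of controls, and 3.40, 3.31, 3.60, 3.38 and 3.31 in the same order of hypothyroid livers. The upper controls lay among the hypothyroid livers. The difference was 0.44 (SE 0.29, adjusted p = 0.763) and 0.13 without control 616 (95% interval -0.13 to 0.38). Ass1 was also higher on 4 of 4 shared slides, by 0.11 to 1.59, with the largest again on the slide of control 616.

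Otc, the mitochondrial enzyme that makes citrulline, was measured by 2 probes. On the brighter probe the spot of control 616 was marked as an outlier and dropped, and the 4 remaining controls ran from 6.41 to 6.71 and the 5 hypothyroid livers from 6.54 to 6.84, a difference of 0.11 (SE 0.09, 95% interval -0.08 to 0.31, adjusted p = 0.788). This was the member probe with the narrowest interval. On the second probe control 616 was measured at 3.78 and the other controls from 4.75 to 5.22, and hypothyroid livers ran from 5.02 to 5.30. The difference there was 0.37 with control 616 (adjusted p = 0.759) and 0.12 without it (95% interval -0.10 to 0.34).

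Nags, which makes N-acetylglutamate and so sets the activity of the cycle's first step, was 3.41, 3.83, 3.57, 2.51 and 3.54 in controls 881, 832, 522, 616 and 391. In hypothyroid livers it ran from 3.58 to 3.82, within the control range. The difference of 0.29 (SE 0.20, adjusted p = 0.774) came down to 0.08 without control 616, with an interval of -0.12 to 0.27.

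**Figure D2:**
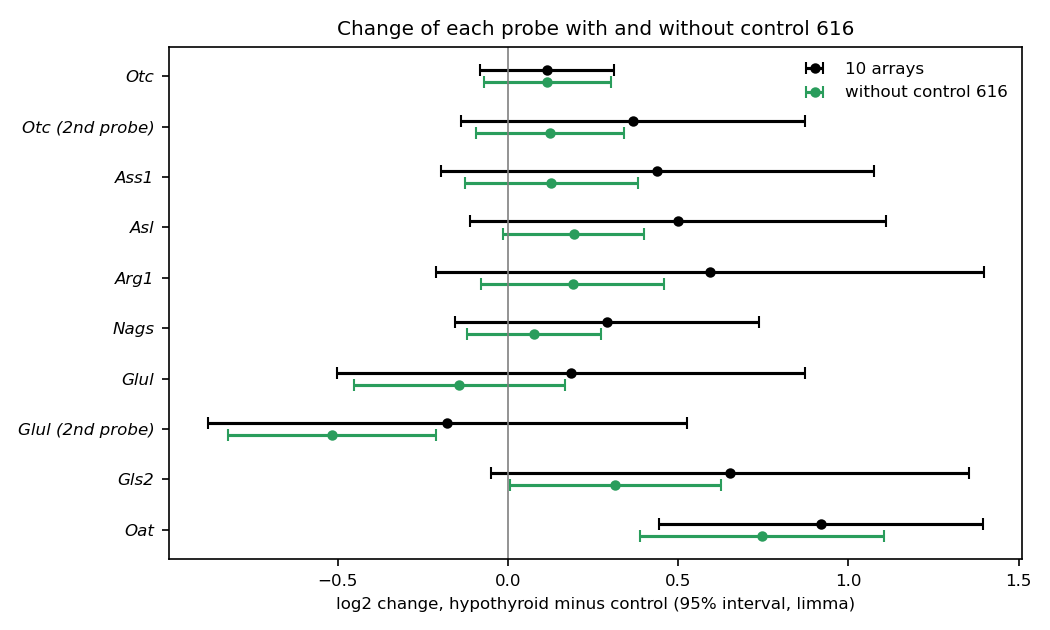
Difference between hypothyroid and control livers for each probe on the log2 scale, with its 95% interval from limma, on 10 arrays (black) and without control 616 (green). The intervals of Otc, Ass1, Asl, Arg1, Nags and the brighter Glul probe cover 0 in both sets, that of Oat covers 0 in neither, and those of Gls2 and the second Glul probe leave 0 only without control 616.

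On the glutamine side the enzymes that split and make glutamine differed in sign once control 616 was left out, by amounts that did not pass the adjusted threshold. Gls2, the liver glutaminase, was 4.35 (881), 4.67 (832), 5.02 (522), 2.96 (616) and 4.53 (391) in controls and 4.92 (891), 4.64 (576), 5.26 (311), 4.93 (723) and 5.03 (626) in hypothyroid livers. Control 522 and hypothyroid 576 kept the groups overlapping. The difference was 0.65 (SE 0.32, adjusted p = 0.724), and without control 616 it was 0.32 (95% interval 0.005 to 0.63, adjusted p = 0.696). On the shared slides Gls2 was higher in 3 of 4, with differences from -0.02 on slide 141 to 2.07 on the slide of control 616.

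Glul, which makes glutamine from glutamate and ammonia, was 3.64 (881), 3.40 (832), 3.94 (522), 2.09 (616) and 3.96 (391) in controls on its brighter probe. In hypothyroid livers this probe read 3.82 (891), 3.27 (576), 3.55 (311), 3.50 (723) and 3.81 (626). Apart from control 616 the groups covered much the same range. The difference was 0.18 (SE 0.31, adjusted p = 0.906), and -0.14 without control 616 (95% interval -0.45 to 0.17), so its sign rested on that array.

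The second Glul probe, which was dimmer, read 2.23 (881), 2.78 (832), 2.82 (522), 0.90 (616) and 2.53 (391) in controls and 1.87 (891), 2.42 (576), 1.91 (311), 2.03 (723) and 2.14 (626) in hypothyroid livers. Of the 5 hypothyroid livers 4 were below every control but 616. The difference was -0.18 with control 616 (SE 0.32, adjusted p = 0.911) and -0.52 without it (95% interval -0.82 to -0.21, adjusted p = 0.293). It was lower on 3 of 4 shared slides, and higher by 1.24 on the slide of control 616. The 2 probes share an accession, and their difference in size was not tested.

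**Figure D3:**
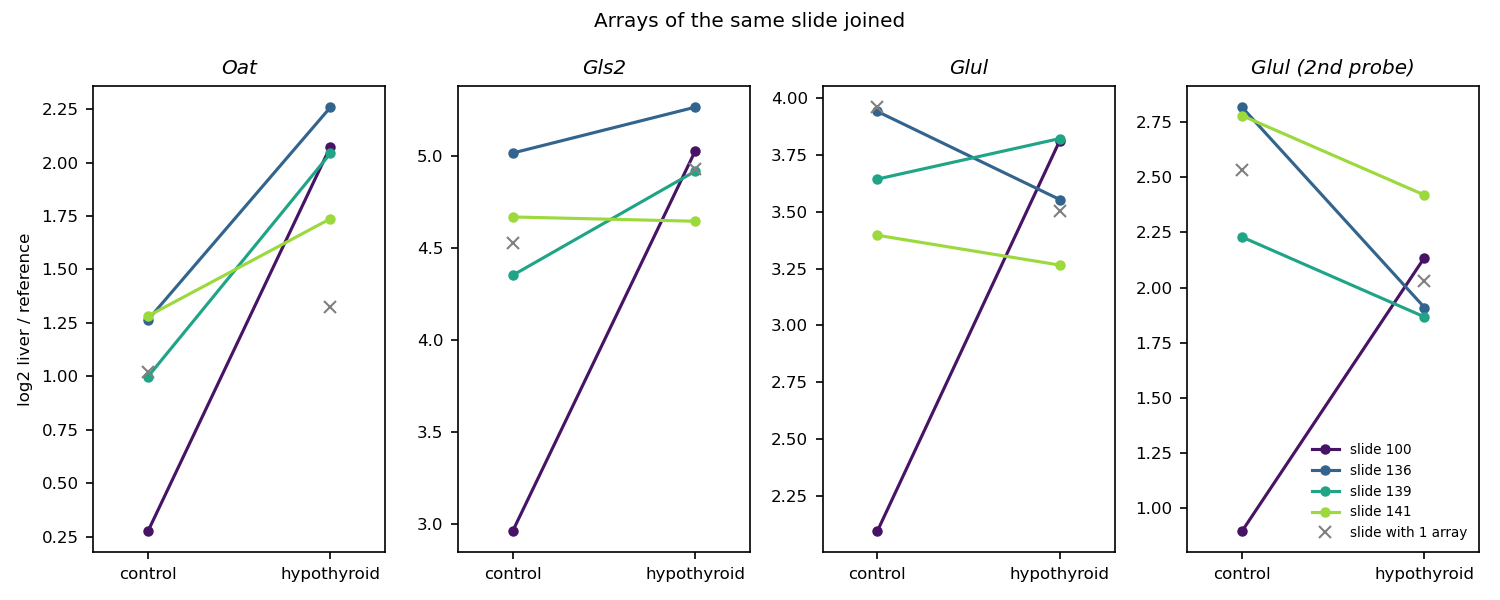
Log2 ratio of liver over reference for Oat, Gls2 and both Glul probes, with the control and the hypothyroid array of the same slide joined by a line; crosses are the arrays alone on their slide. The Oat lines all go up, by 0.46 to 1.80, while the second Glul probe goes down on every slide but that of control 616.

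The genes whose pattern over arrays was most like that of Glul were described by Pearson's r of their brightest probe with its brighter probe. They were Nat8f1 (r = 0.98 over 10 arrays and 0.87 over the 9 without control 616), Lmf1 (0.97 and 0.85) and Car14 (0.97 and 0.81), and 14 of 15190 genes compared had an r above 0.95. These arrays share the reference RNA, and for each gene named r was lower without control 616. The genes were picked for a high r over 10 arrays, so the values are a description.

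Genes next to the members in the pathway were taken from lists of their roles. Among enzymes of glutamate, proline and transamination, 12 were tested, of which 2 were higher and 1 lower at an unadjusted p below 0.05, with a median of 0.28 (0.11 without control 616). The lower one was Prodh, proline dehydrogenase, which feeds proline carbon into glutamate semialdehyde, the compound that Oat also makes. Prodh was 2.61 (881), 3.09 (832), 2.83 (522), 2.53 (616) and 2.45 (391) in controls and 1.89 (891), 1.97 (576), 1.64 (311), 0.76 (723) and 2.02 (626) in hypothyroid livers. No hypothyroid liver reached the lowest control. The difference was -1.05 (SE 0.23, adjusted p = 0.255) and -1.09 without control 616 (adjusted p = 0.159). An exact permutation test of Prodh alone, not adjusted for other probes, gave p = 0.00794, the smallest possible. Groups without overlap always give this value, so it adds nothing to the lack of overlap. Hypothyroid 723, which had the lowest Prodh, also had the lowest Oat of its group. The controls 881 and 391, with low pancreas markers, were above all hypothyroid livers in Prodh.

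The higher ones were the aspartate aminotransferases, which supply the aspartate used by Ass1. Mitochondrial Got2 was 1.45, 1.71, 1.68, 0.75 and 1.56 in controls 881, 832, 522, 616 and 391 and 1.80, 1.91, 1.88, 1.72 and 1.81 in hypothyroid 891, 576, 311, 723 and 626, with no overlap but a gap of little width between control 832 and hypothyroid 723. The difference was 0.39 (adjusted p = 0.673), and 0.22 without control 616. Cytosolic Got1 differed by 0.50 with overlap (adjusted p = 0.684), and by 0.29 without control 616. Without that array 4 genes of this list were higher at an unadjusted p below 0.05 (Got1, Got2, Aldh4a1 and Abat) and 2 lower (Prodh and Gpt2).

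Among partners of the cycle and enzymes that use arginine or ornithine, 8 were tested, with a median of -0.11 and 2 higher at an unadjusted p below 0.05. Without control 616 the median was -0.03, and the mitochondrial carrier Slc25a29 was then lower at that level, with a difference of -0.32 (-0.23 on 10 arrays). Slc25a13, the liver carrier that exports aspartate from mitochondria for Ass1, was higher by 0.50 (adjusted p = 0.679) and by 0.28 without control 616. Its controls ran from 2.65 to 4.00 and its hypothyroid values from 3.93 to 4.22. Ddah1, which breaks down methylated arginine, was higher by 0.54 (adjusted p = 0.541) and by 0.38 without control 616.

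Enzymes that break down other amino acids, and so release the nitrogen that the cycle disposes of, had a median of 0.44 over 25 tested genes. In 24 of the 25 the hypothyroid mean was higher, and 4 were higher at an unadjusted p below 0.05. Without control 616 the median was 0.20, 23 of 25 were higher and 10 were so at an unadjusted p below 0.05, against 3.3% of all probes in that direction. All 11 tested hepatocyte markers were also higher, on 10 arrays and without control 616, with larger medians of 0.64 and 0.34. Relative to those markers the median of the breakdown enzymes was -0.43, where that of all tested probes was -0.85. With the ratios scaled to an equal spread the median of this list was -0.01, so its lean rested on the unscaled ratios. None of these genes passed the adjusted threshold on 10 arrays. Cth, which splits cystathionine to cysteine, was 3.78 (881), 3.96 (832), 3.95 (522), 3.02 (616) and 3.53 (391) in controls and 4.34 (891), 4.28 (576), 4.31 (311), 4.27 (723) and 4.21 (626) in hypothyroid livers. The hypothyroid values were tightly grouped above all controls. The difference was 0.63 (SE 0.16, adjusted p = 0.338) and 0.48 without control 616 (adjusted p = 0.0964).

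Tyrosine aminotransferase (Tat), with the spot of control 522 dropped as an outlier, was higher by 0.61 (adjusted p = 0.622) and by 0.34 without control 616, with no overlap between the 4 controls and the 5 hypothyroid livers. Bckdhb, a subunit of the dehydrogenase for branched-chain keto acids, was higher by 0.49 without overlap (adjusted p = 0.642), and by 0.29 without control 616. Gnmt, the glycine methyltransferase that uses up S-adenosylmethionine, was higher by 0.70 with overlap (adjusted p = 0.651; control 522 dropped), and by 0.39 without control 616.

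Lists without such a lean were the glutamine amidotransferases, with a median of -0.03 over 8 genes (-0.01 without control 616), and the transporters of amino acids, ammonia and urea, with a median of -0.07 over 20 (-0.02 without it). In the former only the CTP synthase Ctps2 had an unadjusted p below 0.05 (0.19 higher, adjusted p = 0.684, and 0.18 higher without control 616). In the latter the cationic amino acid transporter Slc7a2 was higher by 0.91 (adjusted p = 0.673) and 0.54 without control 616. Its controls ran from 0.78 to 3.10 and its hypothyroid values from 2.76 to 3.36. Slc7a7, the light chain of the y+L exporter, gave a difference of -0.20 (adjusted p = 0.673), and of -0.16 without control 616. On the control arrays the list medians ran from -0.79 to -0.41 for the amidotransferases and from 0.71 to 0.96 for the transporters. Those of the amino acid breakdown enzymes ran from 2.87 to 4.34, and the part of this level in the differences was not tested.

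Transcription factors and other regulators of these enzymes had a median of 0.23 over 13 genes and 0.01 without control 616. Cebpb, a transcription factor, was the regulator with an unadjusted p below 0.05 on 10 arrays. It was -0.00 (881), -0.60 (832), 1.33 (522), 0.20 (616) and -0.31 (391) in controls and -1.31 (891), -1.02 (576), -0.99 (311), -0.53 (723) and -1.08 (626) in hypothyroid livers. Hypothyroid 723 and control 832 overlapped, and control 522 stood well above the rest. The difference was -1.11 (SE 0.31, adjusted p = 0.44) and -1.09 without control 616. Hnf4a and Cebpa, which maintain urea cycle genes in liver, differed by 0.30 and 0.36, and by -0.07 and 0.08 without control 616. In that set Creb3l3 was higher at an unadjusted p below 0.05, by 0.19 (adjusted p = 0.643, and 0.46 higher on 10 arrays).

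Because the members lie in different zones of the liver lobule, genes of each zone were counted beside them. Periportal genes had a median of 0.37 over 9 tested (0.08 without control 616), and perivenous genes 0.11 over 9 (0.08 without it). Among periportal genes Etnppl, which breaks down phosphoethanolamine, was 5.87 (881), 5.65 (832), 5.43 (522), 3.98 (616) and 4.85 (391) in controls and 6.14 (891), 6.41 (576), 6.15 (311), 6.39 (723) and 6.08 (626) in hypothyroid livers, without overlap. Its difference was 1.08 (SE 0.30, adjusted p = 0.442) and 0.78 without control 616. The periportal genes went both ways without control 616, with 6 of the 9 higher in the mean. Etnppl and Hal (0.27 higher) then had an unadjusted p below 0.05, as did Cyp2f2, which was lower with a difference of -0.19. Cdh1 and Ctsc were at -0.27 and -0.21 in that set. In the perivenous list none had an unadjusted p below 0.05, and the smallest was that of Lect2, a secreted hepatocyte protein (0.60 higher, adjusted p = 0.749, and 0.25 higher without control 616). Without control 616 the 9 perivenous genes went both ways, with 5 higher in the mean. Axin2, a target of Wnt signalling, and Rhbg, an ammonium transporter, were then lower at an unadjusted p below 0.05, with differences of -0.32 and -0.24 (adjusted p = 0.651 and adjusted p = 0.541). Tbx3 and Slc1a2 were also lower in the mean, at -0.26 and -0.08. Cyp2e1, Lect2, Gulo, Lgr5 and Cyp1a2 were at 0.28, 0.25, 0.22, 0.16 and 0.08 in the same set, and the Glul probes at -0.14 and -0.52.

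**Figure D4:**
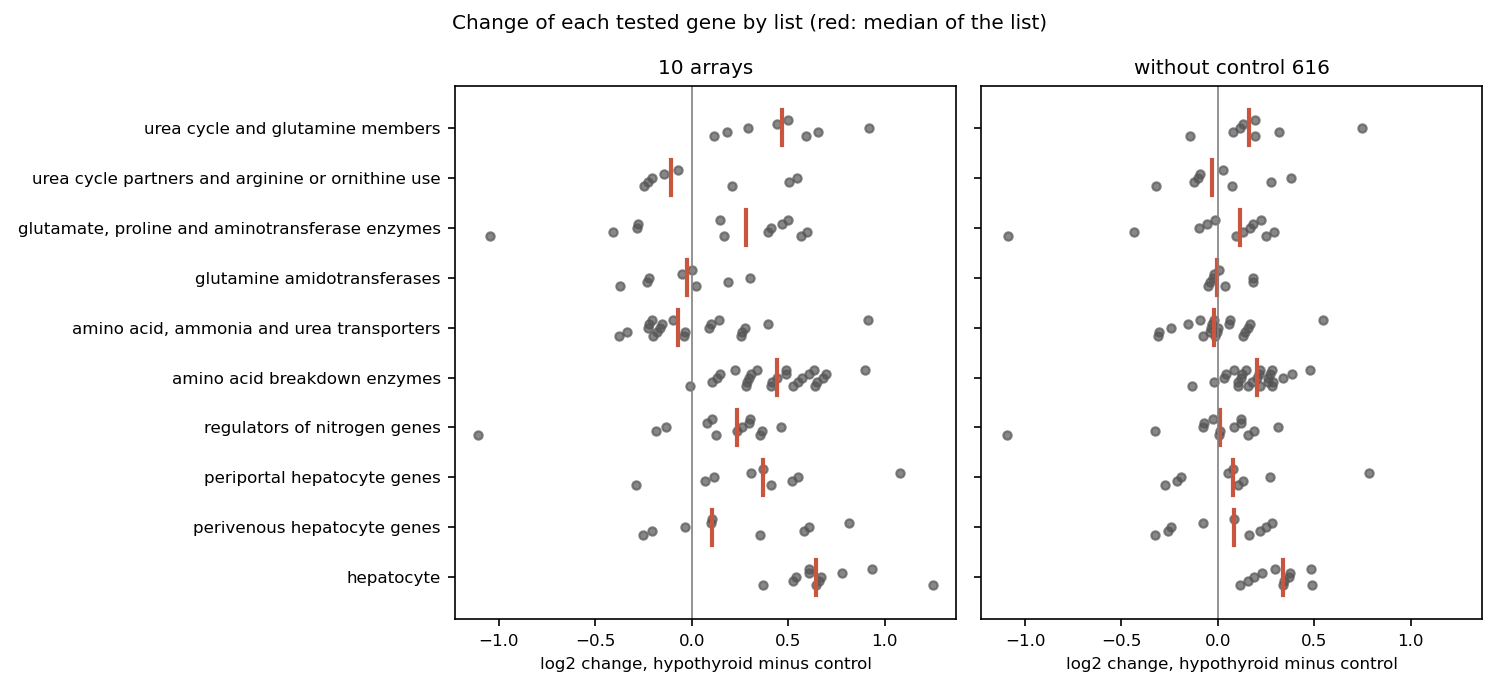
Difference between hypothyroid and control livers on the log2 scale for each tested gene of the pathway, zone and hepatocyte lists, on 10 arrays (left) and without control 616 (right); each point is 1 gene and the red line is the median of its list. Medians of the members, the amino acid breakdown enzymes and the hepatocyte markers lie to the right of 0 and move towards it without control 616, to 0.16, 0.20 and 0.34.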

How the data were processed

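Liver RNA of 5 control and 5 hypothyroid pups was amplified and labelled from 200 ng, co-hybridised with reference RNA, and scanned with Feature Extraction 10.1.1.1 (per the labels and file headers). For every spot the deposited files hold the median and the processed intensity of each channel; no normalized log2 ratio was used. RefSeq promoters are from GRCm38.p6. The miRNA cards of the series were not used.

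Groups were taken from the sample titles. Channels of slide 141 were exchanged. Control spots and outlier spots were dropped, normexp (offset 50) and loess (span 0.2) were applied to the median intensity, and repeated spots were averaged. A probe was tested if it was above the limit of the methods (mean plus 3 SDs of the negative controls, both with 5% trimmed) in either channel on at least 5 of 10 arrays, which 34930 of 41174 probes were. Accessions gave a current symbol to 23374 probes, and the brightest probe stood for a gene. limma 3.58.1 in R 4.3.3 (statmod 1.5.0 for the random block, version 1.17.8 of data.table for reading) was fitted to all tested probes, with Benjamini-Hochberg adjustment over all of them. Where nothing else is said, p is from limma and unadjusted. Pups were of separate litters, so the spread is between animals. Single probes were also compared by exact permutation, which for the members gave a p below 0.05 for Oat and Asl alone.

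The members, lists and tests were chosen with earlier results of these data known. All members were named. Each pathway and zone list gave its genes with an unadjusted p below 0.05 (at most 5, or the 1 with the smallest p). The 2 brightest genes of each other marker list and the 3 genes most like Glul were also named. Cpb1, Hnf4a, Cebpa, Creb3l3, Slc25a29, Aldh4a1, Abat, Gpt2, Hal, Cyp2f2, Cdh1, Ctsc and the perivenous genes other than Lect2 were added with their values in view. As alternatives served the dyes as labelled, leaving out slide 141 or each array, slide as a fixed or random block, other background and scaling choices, other filters, probes averaged to genes, and the Fs test of the methods with 100 shuffles. Programs were tested on simulated data.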

Additional observations from a re-analysis of the deposited data

Results flagged for a closer look

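Dixon's test for an array far from the others of its group was run on 50 groups of values, and 10 were past its 95% limit, where chance gives about 1 in 20. In 8 of the 10 the array was control 616, at the low end. The gap of control 616 to its nearest control, as a share of the control range, was 0.721 for Arg1, 0.713 for Asl, 0.718 for Oat, 0.841 for Ddah1, 0.767 for Slc25a13, 0.722 for Got2, 0.928 for Tat and 0.864 for Bckdhb. Without this array the differences of these genes were 0.19, 0.19, 0.75, 0.38, 0.28, 0.22, 0.34 and 0.29, in the same order. Its weak ratios in both directions are described above, and their part in these values was not tested beyond leaving the array out.

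The other groups with an array far from the rest were hypothyroid livers in which 891 was lowest. For Ddah1 hypothyroid 891 was at 1.57 with a gap of 0.878 of the range, and for Slc7a2 it was at 2.76 with a gap of 0.746.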

How the results depend on the processing

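Oat was higher in hypothyroid livers under all 26 alternatives, by 0.07 to 1.15, with an unadjusted p below 0.05 in 24 and an adjusted p of 0.169 to 1.00. The 26 are not separate checks. Aquantile, the other filters, probe averaging and the Fs test keep its difference by construction, as Oat has 1 probe with a value on every array. Prodh and Cebpb were lower under all 26. The setting relative to the hepatocyte markers tells nothing for genes already lower, as it moved the median of all tested probes from -0.01 to -0.85. The number of probes with an adjusted p below 0.05 was 2, and 0 with the dyes as labelled, without slide 141, with slide as a fixed block or by the Fs test (with 1276 higher and 1533 lower at an unadjusted p below 0.05), 14 with slide as a random block, 1 with the processed signals, median centring, scale normalization or without slide 141 and control 616, 24 relative to the hepatocyte markers, and 1 to 30 when 1 array was left out (30 without control 616, 6 without hypothyroid 723, 1 without control 832, control 391, hypothyroid 576 or hypothyroid 626). Members higher at an unadjusted p below 0.05 numbered 1, and 2 (with Gls2) by the Fs test, with slide as a random block and without slide 141 and control 616, 0 with the dyes as labelled and relative to the hepatocyte markers, and 1 to 2 when 1 array was left out (2, with Gls2, without control 522 or 616). Members higher without overlap numbered 1, and 2 (with Nags) without slide 141 and without slide 141 and control 616, 0 with the dyes as labelled, median centring, scale normalization and relative to the hepatocyte markers, and 1 to 2 when 1 array was left out (2 with Nags without control 832, and with Asl without control 522).

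Signs turned as follows. Glul ran from -0.14 (without control 616) to 0.32 (without control 391) when 1 array was left out, and was at -0.17 without slide 141 and control 616. With median centring, which moved the median of all probes from -0.01 to 0.07 and the share of higher calls at an unadjusted p below 0.05 from 45% to 79.9%, the second Glul probe was at 0.026 and Slc7a7 at 0.0196. With scale normalization (36.8% higher) Otc was at -0.22, its second probe at -0.12, Nags at -0.0554, Glul at -0.15 and Tat at -0.0259. Relative to the hepatocyte markers the median of all probes was -0.85, 0% of such calls were higher and the members' median was -0.33. Otc was there at -0.31, its second probe at -0.48, Ass1 at -0.41, Asl at -0.35, Arg1 at -0.25, Nags at -0.55, Glul at -0.66, Gls2 at -0.19, Ddah1 at -0.30, Slc25a13 at -0.34, Got2 at -0.45, Got1 at -0.34, Ctps2 at -0.66, Cth at -0.21, Tat at -0.52, Bckdhb at -0.36, Gnmt at -0.43 and Lect2 at -0.24, all above the median of all probes. The second Glul probe and Slc7a7, which kept their sign there, were below that median, at -1.02 and -1.05. The last 2 scalings and the set without slide 141 and control 616 were added after seeing the data. The cause was not tested.

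The Fs test left out Otc's brighter probe, since it needs a value on every array, and Aquantile leaves ratios as they are. Scan date was not tested as a separate block. No paired analysis was possible because the animals of the array groups share no numbers, and blocks were set by slide instead.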

Other observations

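Marker lists of other cells were measured beside the members, and most values came nearer to 0 without control 616, which is given second in each case. Skeletal muscle genes had a median of -0.22 and -0.13 over 12 tested, with 2 lower at an unadjusted p below 0.05. Of its brightest genes, the troponin Tnni2 differed by -0.22 and -0.12 and the actin Acta1 by -0.63 and -0.41 (adjusted p = 0.673 on 10 arrays), with Acta1 highest in controls 522 and 616 at -0.86 and -0.53. Erythroid genes had a median of -0.02 and -0.04 over 8, with the globin Hba-a1 at 0.54 and 0.25 and Alas2, the first enzyme of haem synthesis in red cells, at 0.25 and 0.003.

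Macrophage genes had a median of 0.19 and -0.03 over 6, so the sign rested on control 616. Lyz2 was at -0.19 and -0.12, and Cd5l at 0.20 and 0.02. Endothelial genes had a median of -0.04 and -0.11 over 7, with Clec4g at -0.05 and -0.23 and Stab2 at 0.24 and 0.02. Stellate cell genes had a median of -0.14 and -0.05 over 7, with Col1a1 at -0.80 and -0.37 and Dcn at -0.14 and -0.03. Biliary genes had a median of -0.41 and -0.12 over 5, with Spp1 at -0.90 and -0.12 and Krt19 at -0.61 and -0.28. Intestinal genes had a median of 0.22 and 0.05 over 2, with Fabp2 at 0.50 and 0.20 and Vil1 at -0.07 and -0.11.

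Of the exocrine pancreas list the brightest genes were Pnliprp1 and Amy2a5, which unlike Cpb1 had ratios well above 0 in every liver. They differed by 0.03 and -0.19, and by -0.21 and -0.61 without control 616. Both were highest in controls 522 and 832, at 5.33 and 4.83 for Pnliprp1 and at 5.78 and 5.07 for Amy2a5, and lowest in control 616. Cpb1 was at 6.39, 6.51 and 4.49 in controls 522, 832 and 616 and between 0.06 and 0.39 in the other 7 livers. Of the hepatocyte list the brightest were Alb and Ahsg, at 0.66 and 0.54, and at 0.48 and 0.34 without control 616.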
